A study of Mus musculus with 60 samples.

Results

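Usp1, Parp1 and Zbtb32 are the 3 genes of the Reactome DNA repair set with the clearest rise in fibroblasts that carry a truncated Ercc1 allele and were partially reprogrammed together with 2 small molecules. They were selected on measured values, as the 3 smallest p-values among the 134 set genes tested in D/KO cells at day 4 plus VC against day 0 plus VC. Their log2 differences in that contrast were 2.84 for Usp1, 1.68 for Parp1 and 6.17 for Zbtb32, and the genes next in rank were Xrcc5 at 1.23, Usp10 at 1.04 and Brca1 at 1.96. These values chose the genes, so every contrast that uses the D/KO day 0 or day 4 plus VC libraries is given below as a description with no test. The 3 genes are 3 of the 56980 gene identifiers in each count table, and each passed the filter on low counts in both tables. Zbtb32 passed it in the reprogramming table through the induced D/KO groups in which it is highest, namely days 2 and 4 plus VC and day 4 without VC. Each of these groups meets the minimum count by itself.

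Usp1 is a deubiquitinase that works with Wdr48 and removes single ubiquitins from FANCD2, FANCI and PCNA, so it resets the Fanconi pathway of crosslink repair and the bypass of damaged DNA. It also stabilises Id proteins and keeps mesenchymal stem cells from differentiating. Parp1 senses DNA strand breaks, uses NAD to build poly(ADP-ribose) chains at them, and thereby recruits Xrcc1 and other repair factors. Zbtb32 is a BTB zinc finger repressor known mainly from lymphocytes, where it acts on GATA-dependent and plasma cell genes, and it was also found as a binding partner of the Fanconi protein Fancc. Ercc1 is the partner of the nuclease Xpf in nucleotide excision and crosslink repair.

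The study asked how the first days of reprogramming and the inhibition of TGFb signalling act on cells with an Ercc1 defect. It sequenced polyA RNA from 60 libraries in 20 groups of 3. In the reprogramming table, D/KO cells (4FJ_ERCC1_(d/-)) were tail tip fibroblasts of a male of 8 weeks, and WT cells (4FJ_(+/-)_OCT4-GFP) were tail tip fibroblasts of a female of 22 weeks. Both lines carry the doxycycline-inducible Oct4, Sox2, Klf4 and Myc cassette in the Col1a1 locus with the rtTA activator expressed from ROSA26, so every reprogramming library, controls included, carries the transgenes. Cells were sampled at day 0 without doxycycline and at days 2 and 4 of doxycycline at 2 µg/ml. VC stands for ascorbic acid at 50 µg/ml together with CHIR99021 at 3 µM, a GSK3 inhibitor, and it was also given to day 0 groups. In the inhibitor table, ERCC1_(d/-) tail tip cells of a female of 4 weeks were left untreated (control D/KO) or received Repsox, Vactosertib, A83-01 or DMH-1. Untreated ERCC1_(+/+)_WT cells of a female of 14 weeks came from tail tip and from skin. A further group of WT 4F cells, from a female of 22 weeks and labelled TGFB, has no matching control in the table, and only its levels are given. Genotype cannot be told apart from sex, age and line in the reprogramming table, nor from age and animal in the inhibitor table. The labels do not say that the 3 libraries of a group came from separate cultures or animals, so p-values measure only the spread between these libraries, which may be technical.

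On GRCm39, in the deposited gene models, Usp1 (ENSMUSG00000028560) lies at chr4:98812047-98823780 on the plus strand with 9 exon blocks and 3733 exonic bases. Parp1 (ENSMUSG00000026496) lies at chr1:180396489-180428819 on the plus strand with 23 exon blocks and 5293 exonic bases, and hosts the microRNA gene Mir6904. Zbtb32 (ENSMUSG00000006310) lies at chr7:30289106-30298334 on the minus strand with 8 exon blocks and 2357 exonic bases. All 3 are protein-coding and values below are counts summed over their exons. In GENCODE M39 the antisense lncRNA Gm71682 overlaps Zbtb32. It has no row in the count table and the strand setting of the counting was not given in the sources used here, so reads of the antisense transcript cannot be told apart from those of Zbtb32. In the same annotation, in which Zbtb32 extends further upstream to base 30302262, the protein-coding neighbours of Zbtb32 were Upk1a and Kmt2b, 248 and 691 bases away.

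Promoter sequences of 2 of the 3 genes were matched in the RefSeq promoter table (build GRCm38.p6). The 250 bases before the first start site listed there are shown, because both genes were highest in induced D/KO cells with VC. Each has 1 exact match on GRCm39. That of Parp1 is at chr1:180396206-180396455 on the plus strand. That of Zbtb32 is at chr7:30298335-30298584 on the minus strand and adjoins its deposited gene model. It lies within the longer Zbtb32 gene of GENCODE M39. In Parp1 capitals mark GC boxes, which read GGGCGG on the opposite strand, and the E box CACGTG. In Zbtb32 they mark the CCAAT box.
Parp1 promoter 1: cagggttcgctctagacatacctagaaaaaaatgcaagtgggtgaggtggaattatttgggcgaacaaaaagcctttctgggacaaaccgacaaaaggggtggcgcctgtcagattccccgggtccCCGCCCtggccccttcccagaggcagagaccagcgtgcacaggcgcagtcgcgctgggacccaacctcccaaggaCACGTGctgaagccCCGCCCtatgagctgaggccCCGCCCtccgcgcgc
Zbtb32 promoter 1: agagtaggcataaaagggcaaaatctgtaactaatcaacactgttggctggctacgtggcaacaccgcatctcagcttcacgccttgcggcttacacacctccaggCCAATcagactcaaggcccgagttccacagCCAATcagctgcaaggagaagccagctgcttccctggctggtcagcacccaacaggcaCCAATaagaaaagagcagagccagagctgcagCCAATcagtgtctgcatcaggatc
The Parp1 window held 3 GC boxes and 1 E box at a GC content of 61.6%, and the Zbtb32 window held 4 CCAAT boxes at 53.6% GC. Among 32851 promoter windows of this length, 32.7% held a GC box and 8.47% held at least 3, 6.02% held CACGTG, 33.8% held CCAAT and 0.84% held at least 4. The E2F letters (TTTGGCGC, TTTCCCGC, TTTGGCGG, TTTCGCGC), the CHR letters TTTGAA, the octamer ATGCAAAT, the E2 box CAGGTG and the AP-1 letters TGACTCA were also searched on both strands and had no match in either window. A second, downstream Zbtb32 start held none of the motifs searched. These matches describe letters and not binding.

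The reprogramming libraries held 16538374 to 18484951 counts each, and the inhibitor libraries 17102639 to 30599138. Levels are CPM after TMM scaling, that is, counts scaled for library size, given as mean ± SD of 3 libraries. Differences are log2 values ± standard error from edgeR's quasi-likelihood test, adjusted by the Benjamini-Hochberg method over the 15832 or 15652 genes tested, with calls at 0.05. Ercc1 was 8.04 to 18.6 CPM in D/KO and 16.9 to 29.1 in WT reprogramming libraries, and in the inhibitor table it was 20.6 ± 0.276 CPM in control D/KO and 18.04 ± 4.3 in WT tail tip. The groups overlapped in both tables, so Ercc1 counts did not check the labels, and D/KO stands for the label throughout. Pou5f1 was 0.471 to 2.88 CPM in every day 0 library and 12.5 to 149.7 CPM at days 2 and 4. Fibroblast markers were all detected in every reprogramming group. In the inhibitor table WT skin replicate 1 and Repsox replicate 2 stood apart from their groups, with variance over counting noise of 278 to 366 and 152 to 163, against a median of 24.1 over 24 replicate pairs. Fewer cells of a type and less RNA per cell cannot be told apart in such bulk samples.

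Usp1 rose in both lines under doxycycline, and more in D/KO than in WT cells when VC was absent. In D/KO cells it was 27.9, 29.0 and 26.0 CPM at day 0, 126, 122 and 126 CPM at day 2, and 133, 112 and 144 CPM at day 4. In WT cells it was 33.7, 31.4 and 36.7 CPM at day 0, 94.9, 89.1 and 103 CPM at day 2, and 78.3, 79.5 and 78.5 CPM at day 4. Every induced library lay above every day 0 library, and the induced D/KO libraries lay above the induced WT libraries without VC.

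In D/KO cells the log2 rise of Usp1 was 2.17 ± 0.10 at day 2 (4.5-fold, edgeR adjusted p = 6.27e-19), where 27.4% of all genes tested were called. At day 4 it was 2.23 ± 0.10 (4.69-fold, edgeR adjusted p = 1.49e-19), with 37% of genes called. The step from day 2 to day 4 was 0.06 ± 0.09 and not called (edgeR adjusted p = 0.811), with 9.57% of genes called. In WT cells the rise was 1.49 ± 0.10 at day 2 (2.82-fold, edgeR adjusted p = 8.71e-14) and 1.21 ± 0.10 at day 4 (2.32-fold, edgeR adjusted p = 4.4e-12), where 10.6% and 24.5% of genes were called. Between days 2 and 4 WT cells lost part of the rise, by a log2 difference of -0.28 ± 0.09 (edgeR adjusted p = 0.0327), with 21.5% of genes called. That last call was lost when any one of WT day 2 replicates 2 and 3 or WT day 4 replicates 1 to 3 was left out, with values from -0.32 to -0.23 and adjusted p up to 0.123.

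VC raised Usp1 further once doxycycline was present, and with VC the level in WT cells rose again from day 2 to day 4. WT cells with VC held 33.9, 35.2 and 38.2 CPM at day 0, 149.5, 140.5 and 154 CPM at day 2, and 210.4, 204 and 219 CPM at day 4. The log2 rise over day 0 plus VC was 2.05 ± 0.10 at day 2 (4.14-fold, edgeR adjusted p = 3.11e-18) and 2.56 ± 0.10 at day 4 (5.9-fold, edgeR adjusted p = 3.14e-21), where 27.5% and 44.7% of genes were called. From day 2 to day 4 with VC the step was 0.51 ± 0.09 (edgeR adjusted p = 0.000162), with 20.1% of genes called. None of the 3 WT groups with VC overlapped another.

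The effect of VC itself on Usp1 is given by day, and the days were not compared by a test. At day 0 in WT cells it was 0.08 ± 0.10 and not called (edgeR adjusted p = 0.604), although 29.4% of genes were called. At day 2 it was 0.63 ± 0.09 in WT cells (1.55-fold, edgeR adjusted p = 3.61e-06) and 0.55 ± 0.09 in D/KO cells (1.47-fold, edgeR adjusted p = 2.37e-05), with 26.6% and 25.3% of genes called. In WT cells at day 4 it was 1.42 ± 0.10 (2.68-fold, edgeR adjusted p = 9.86e-14), with 22.4% of genes called. As a description, the VC difference in D/KO cells was -0.01 at day 0 and 0.60 at day 4. D/KO cells with VC held 24.3, 27.0 and 31.2 CPM at day 0, 190.1, 179 and 179 CPM at day 2, and 222, 180.0 and 189 CPM at day 4. Over the 12 reprogramming groups the highest mean was that of WT day 4 plus VC, at 211 ± 7.29 CPM, which overlapped D/KO day 4 plus VC at 197 ± 22.0 CPM. D/KO day 2 plus VC, at 182 ± 6.63 CPM, overlapped the latter in turn, and the 4 day 0 groups were lowest, at 27.5 to 35.8 CPM.

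**Figure D1:**
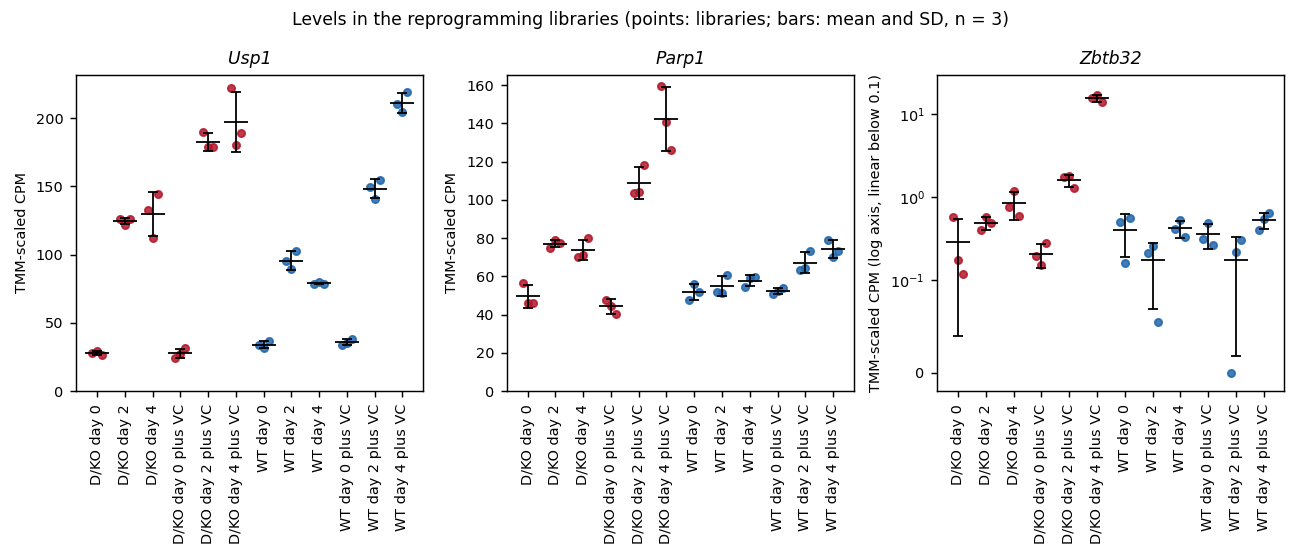
Levels of Usp1, Parp1 and Zbtb32 in the 36 reprogramming libraries, in TMM-scaled CPM on linear axes for Usp1 and Parp1 and on a log axis (linear below 0.1) for Zbtb32. Points are libraries, red for D/KO and blue for WT, and bars are mean and SD of 3. Usp1 is high in all induced groups of both lines, and Parp1 is highest in induced D/KO groups with VC. Zbtb32 reaches 14.1 to 16.8 CPM in D/KO day 4 plus VC alone among the groups shown.

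Genes of replication and division moved with Usp1 in some contrasts and against it in others. At day 2 without VC, 14 of 39 S phase genes were higher and 2 lower in D/KO cells (median log2 change 0.30), and 13 of 20 mitosis genes were higher (median 0.53), against 27.4% of all genes called. In WT cells 1 S phase gene was higher and 0 mitosis genes were called by edgeR (1 at an unadjusted p under 0.05, and 0 by DESeq2), against 10.6% of all genes. At day 4, 3 of 39 S phase genes were higher and 3 lower in D/KO cells (median 0.00), and of 20 mitosis genes 0 were called by edgeR (median -0.07, 1 at an unadjusted p under 0.05, and 0 by DESeq2), against 37% of all genes. In WT cells at day 4, 2 S phase genes were higher and 6 lower (median -0.20), and 13 of 20 mitosis genes were lower (median -0.83), against 24.5% of all genes called. With VC at day 4 against day 0 plus VC, WT cells had 17 of 20 mitosis genes lower (median -1.08), against 44.7% of all genes called, while Usp1 was 5.9-fold higher. With VC against without, 24 S phase and 20 mitosis genes were higher in WT cells at day 4 (medians 0.75 and 1.70), against 22.4% of all genes called, and Usp1 was also higher. The same contrast in D/KO cells at day 2 had 16 S phase genes higher and 1 lower and 3 mitosis genes higher, against 25.3% of all genes called. Over all genes tested at day 4, the median was 0.00 for D/KO and -0.01 for WT. Summed mitosis genes were 47.7 to 51.3 CPM in WT day 4 libraries and 240.0 to 274 CPM in D/KO day 0 libraries, where Usp1 was 78.3 to 79.5 and 26.0 to 29.0 CPM. Summed reprogramming factors (Pou5f1, Sox2, Klf4 and Myc) were 85.2 to 237 CPM at day 0 and 343 to 1078 CPM after induction, and Usp1 was 24.3 to 38.2 CPM in the first of these sets and 78.3 to 222 CPM in the second. Without VC the factors summed to 137 to 190 CPM at day 0 and 648 to 656 CPM at day 2 in D/KO cells. In WT cells they summed to 231 to 237 CPM and 343 to 466 CPM. At day 4 the lines overlapped, at 467 to 753 CPM in D/KO and 530 to 552 CPM in WT cells. The part of either sum in the Usp1 level was not tested.

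Of the Usp1 partners, its substrates and the enzymes that attach the same ubiquitin, 17 of 18 were tested. In D/KO cells at day 4, 5 were higher and 1 lower (median 0.35), which is near the 37% of all genes called in that contrast, and in WT cells 0 were higher and 1 lower (median -0.20), against 24.5% of all genes. Of the 4 smallest p-values in D/KO cells, 3 were those of Id genes, inhibitors of differentiation. Id1 changed by 2.47 ± 0.30 (edgeR adjusted p = 1.42e-08), Id2 by 1.57 ± 0.19 (edgeR adjusted p = 1.33e-08) and Id3 by 0.86 ± 0.23 (edgeR adjusted p = 0.00237), while Id4, named after its value was seen, had 0.38 and was not called (edgeR adjusted p = 0.0974). In WT cells Id2 was lower, at -0.52 ± 0.18 (edgeR adjusted p = 0.032), while Id1 (-0.20) and Id3 (-0.04) were not called. Pcna, the sliding clamp, was 0.60 ± 0.14 higher in D/KO cells (edgeR adjusted p = 0.000561) and -0.22 ± 0.14 in WT cells, which was not called (edgeR adjusted p = 0.258).

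Genes that act just before and after Usp1 are read against the same shares of all genes at day 4, 37% in D/KO and 24.5% in WT cells. Of 12 Fanconi core genes, 0 were higher and 2 lower in D/KO cells at day 4 (median -0.23), against 1 higher and 1 lower in WT cells (median -0.07). Faap20, a core complex subunit, was lower in both, by -0.69 ± 0.17 (edgeR adjusted p = 0.00146) and -0.72 ± 0.17 (edgeR adjusted p = 0.00212), and Fancf was lower in D/KO cells at -0.54 ± 0.20 (edgeR adjusted p = 0.0295). Of 8 genes of translesion synthesis, 1 was higher in D/KO cells (median -0.09) and 3 in WT cells (median 0.21). Shprh, a ligase that extends ubiquitin chains on PCNA, was higher in both, at 0.53 ± 0.16 (edgeR adjusted p = 0.00695) and 0.55 ± 0.16 (edgeR adjusted p = 0.00753). In the rest of the repair set, 21 of 131 genes were higher and 9 lower in D/KO cells (median 0.08), and 12 were higher and 13 lower in WT cells (median -0.06).

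Parp1 rose in D/KO cells by day 2 and stayed there, while in WT cells a rise was called only with VC. In D/KO cells it was 56.3, 46.2 and 46.0 CPM at day 0, 74.9, 78.9 and 77.4 CPM at day 2, and 70.0, 71.2 and 80.0 CPM at day 4. In WT cells it was 47.6, 56.0 and 51.9 CPM at day 0, 52.0, 51.3 and 60.7 CPM at day 2, and 54.3, 59.1 and 59.5 CPM at day 4. The D/KO groups at days 2 and 4 did not overlap day 0, whereas the WT groups without VC overlapped each other.

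The log2 change of Parp1 in D/KO cells was 0.64 ± 0.10 at day 2 (1.56-fold, edgeR adjusted p = 4.72e-06) and 0.58 ± 0.10 at day 4 (1.49-fold, edgeR adjusted p = 1.47e-05), with -0.06 ± 0.10 between them (edgeR adjusted p = 0.802). In WT cells it was 0.08 ± 0.10 at day 2 (95% interval -0.13 to 0.28, edgeR adjusted p = 0.712) and 0.15 ± 0.10 at day 4 (95% interval -0.05 to 0.36, edgeR adjusted p = 0.283). A WT rise as large as that of D/KO cells thus lies outside these intervals, and the test of the difference is given below.

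With VC the WT levels of Parp1 were 50.9, 52.3 and 53.8 CPM at day 0, 63.3, 64.6 and 73.5 CPM at day 2, and 79.0, 69.9 and 73.5 CPM at day 4. Both induced groups lay above day 0 plus VC. Relative to it, Parp1 was higher by 0.36 ± 0.10 on day 2 (edgeR adjusted p = 0.00627) and by 0.50 ± 0.10 on day 4 (1.42-fold, edgeR adjusted p = 9.9e-05). Without WT day 2 plus VC replicate 3, the day 2 value was 0.29 and not called (edgeR adjusted p = 0.057). Against the same day without VC, WT cells with VC differed by 0.30 ± 0.10 on day 2 (edgeR adjusted p = 0.0257) and 0.36 ± 0.10 on day 4 (edgeR adjusted p = 0.00636), but by only 0.01 ± 0.10 on day 0 (edgeR adjusted p = 0.945). The day 2 gain was not called without WT day 2 replicate 1 (0.26), WT day 2 replicate 2 (0.26) or WT day 2 plus VC replicate 3 (0.23), with adjusted p of 0.092 to 0.158.

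In D/KO cells VC added 0.49 ± 0.10 to Parp1 at day 2 (1.41-fold, edgeR adjusted p = 0.000231). As a description, the VC difference in D/KO cells was -0.16 at day 0 and 0.95 at day 4. D/KO cells with VC held 47.8, 44.5 and 40.3 CPM at day 0, 104, 104 and 118 CPM at day 2, and 159.5, 141 and 126 CPM at day 4. These last 2 groups overlapped no other group of the reprogramming table. All other induced groups lay at means of 54.7 to 77.1 CPM and the 4 day 0 groups at 44.2 to 52.3 CPM. S phase and mitosis genes were also highest in D/KO day 4 plus VC, with sums of 1142 to 1217 CPM and 721 to 897 CPM, against 572 to 582 CPM and 140.1 to 156 CPM in WT day 4 plus VC. Their part in the Parp1 level was not tested.

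Genes that make, read or remove ADP-ribose with Parp1 were followed at day 4, where 37% of all genes were called in D/KO and 24.5% in WT cells. Of 10 genes of the Parp1 family and ADP-ribose turnover, 1 was higher in each line (medians 0.04 and -0.05). Macrod1, which removes ADP-ribose, was 0.50 ± 0.18 higher in D/KO cells (edgeR adjusted p = 0.0232), while Parp2, the closest relative in break sensing, had 0.28 ± 0.15 and was not called (edgeR adjusted p = 0.149). Among 14 genes of Parp1-dependent break repair, 3 were higher in D/KO and 1 in WT cells (medians 0.12 and 0.13). Xrcc1, the scaffold recruited by poly(ADP-ribose), was higher in both lines, at 0.71 ± 0.15 in D/KO (edgeR adjusted p = 0.000137) and 0.45 ± 0.14 in WT (edgeR adjusted p = 0.0191). Chd1l, a chromatin remodeller activated by poly(ADP-ribose), was 0.84 ± 0.16 higher in D/KO cells (edgeR adjusted p = 7.78e-05), and Nbn, a subunit of the complex that binds broken ends, 0.45 ± 0.16 (edgeR adjusted p = 0.0221).

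Parp1 consumes NAD, and of 10 genes of NAD supply and use 2 were higher and 1 lower in D/KO cells at day 4 (median 0.25), against 0 and 1 in WT cells (median -0.08). The D/KO count is near the 37% of all genes called. Nampt, which sets the rate of NAD salvage from nicotinamide, was 0.60 ± 0.10 higher in D/KO cells (edgeR adjusted p = 1.39e-05), and Naprt, the entry enzyme for nicotinic acid, 0.96 ± 0.18 (edgeR adjusted p = 5.06e-05). Sirt6, an NAD-dependent deacylase, was -0.46 ± 0.13 in D/KO cells (edgeR adjusted p = 0.00512). In WT cells Nampt (-0.06), Naprt (0.16) and Sirt6 (-0.10) were not called.

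**Figure D2:**
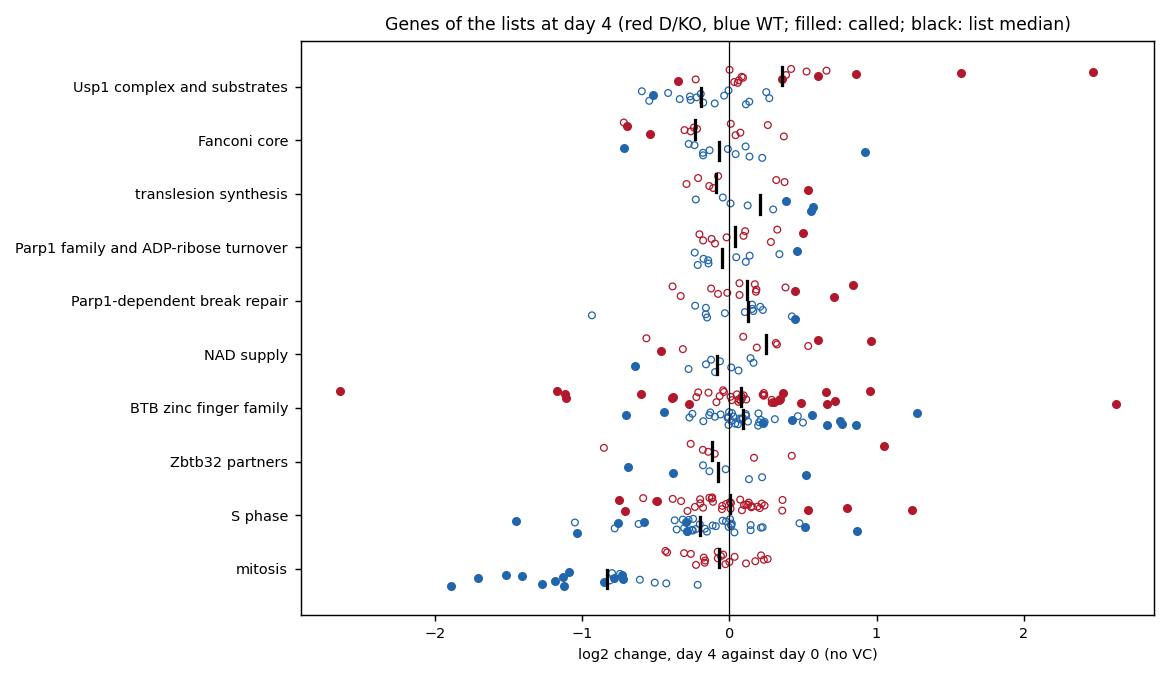
The log2 changes at day 4 against day 0 without VC for the genes of each list, red for D/KO and blue for WT, filled where called and with a black bar at the list median. Id1 at 2.47 lies farthest to the right in the list of Usp1 partners and substrates, and the mitosis genes of WT cells lie to the left, with a median of -0.83.

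Zbtb32 was near the limit of detection in all groups but those of D/KO cells with VC after induction. In D/KO day 4 plus VC it had 298, 302 and 268 counts (15.8, 16.8 and 14.1 CPM), in D/KO day 2 plus VC 30, 30 and 23 counts (1.74, 1.78 and 1.29 CPM) and in D/KO day 0 plus VC 3, 2 and 4 counts. The description of day 4 against day 0 plus VC was a log2 difference of 6.17 (71.9-fold, 95% interval 37.1 to 139.6), which rests on 9 counts at day 0 and belongs to the contrast that chose the gene. In that contrast 54.1% of all genes tested were called. Per kilobase of exon, the level of Zbtb32 in D/KO day 4 plus VC was 6.6 ± 0.579 CPM, below Parp1 at 26.8 ± 3.18 and Usp1 at 52.8 ± 5.91 CPM per kilobase.

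Without VC, Zbtb32 had 9, 3 and 2 counts at day 0 in D/KO cells, 7, 10 and 9 at day 2, and 14, 23 and 11 at day 4. The day 4 libraries, at 0.76, 1.2 and 0.594 CPM, lay above the day 0 libraries, of which replicate 1 was close at 0.58 CPM. The log2 change at day 4 was 1.56 ± 0.51 (2.95-fold, edgeR adjusted p = 0.0134), between groups of 2 to 23 counts. The D/KO day 4 group meets the minimum count of 10 by itself. Zbtb32 thus also passes the filter through a group compared here, and this p-value is not independent of the filter. With only the libraries compared the log2 change was 1.58 and not called (edgeR adjusted p = 0.0804). The call was also lost without D/KO day 0 replicate 2 (1.30, edgeR adjusted p = 0.0718), D/KO day 0 replicate 3 (1.19, edgeR adjusted p = 0.0902) or D/KO day 4 replicate 2 (1.23, edgeR adjusted p = 0.0942). The day 2 change was 0.77 ± 0.55 and not called (edgeR adjusted p = 0.326). At day 2, VC raised Zbtb32 in D/KO cells by 1.69 ± 0.43 (3.22-fold, edgeR adjusted p = 0.00311), a call kept when any one of the 6 libraries was left out and without the filter on low counts (1.69, edgeR adjusted p = 0.00212).

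WT cells had 0 to 12 Zbtb32 counts in each of the 18 libraries. At day 4 plus VC they had 7, 10 and 12 counts (0.534 ± 0.12 CPM), and at day 0 plus VC 5, 8 and 4 counts (0.358 ± 0.119 CPM). The one library with 0 counts, of WT day 2 plus VC, allows up to 3 counts, and 3 counts were at most 0.226 CPM in this table. No WT change from day 0 was called. The log2 values without VC were -1.17 for day 2 and 0.06 for day 4, and those with VC were -0.999 and 0.57 (edgeR adjusted p of 0.231 to 0.96). From day 2 to day 4 with VC, the WT value was 1.56 ± 0.58 (edgeR adjusted p = 0.0541), and it was called without WT day 2 plus VC replicate 3 (2.15, edgeR adjusted p = 0.0374).

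Other BTB zinc finger genes were called at day 4 without VC about as often as all genes. Of 42 tested, 10 were higher and 8 lower in D/KO cells (median 0.08), against 37% of all genes called, and 8 were higher and 2 lower in WT cells (median 0.09), against 24.5%. Zbtb7c was higher in both, by 2.63 ± 0.14 in D/KO (edgeR adjusted p = 3.03e-17) and 0.66 ± 0.14 in WT (edgeR adjusted p = 0.000323). In D/KO cells Bcl6b, a relative of the lymphocyte repressor Bcl6, was -2.65 ± 0.25 (edgeR adjusted p = 6.33e-11) and the tumour suppressor Hic1 -1.18 ± 0.13 (edgeR adjusted p = 2.51e-09). Patz1 was 0.66 ± 0.12 higher there (edgeR adjusted p = 2.12e-05). From D/KO day 0 to day 4 the myeloid and endothelial markers went from 649 to 706 CPM to 253 to 301 CPM and the 12 fibroblast markers from 85529 to 124750 CPM to 41573 to 42901 CPM, and their part in these changes was not tested.

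Of 8 tested partner and target genes of Zbtb32, 1 was higher in D/KO cells (median -0.12), and 1 was higher and 2 lower in WT cells (median -0.08), where 37% and 24.5% of all genes were called. Gata2, one of the GATA factors that Zbtb32 is known to bind, was 1.05 ± 0.17 higher in D/KO cells (edgeR adjusted p = 2.65e-06) and -0.69 ± 0.17 in WT cells (edgeR adjusted p = 0.00315). Gata3, the other, had -0.85 ± 0.36 in D/KO cells and was not called (edgeR adjusted p = 0.0596). Of 11 tested neighbours of Zbtb32 on chromosome 7, 0 were higher and 2 lower in D/KO cells at day 4, against the same 37%, namely Hspb6 at -1.59 ± 0.21 (edgeR adjusted p = 1.22e-07) and Arhgap33 at -1.01 ± 0.21 (edgeR adjusted p = 0.000135). The flanking genes Kmt2b (0.03) and Upk1a (-0.16), named for their position after their values were seen, were not called there. In WT cells at day 4, 1 of the 11 was higher and 3 lower, and Kmt2b was the higher one, at 0.39 ± 0.14 (edgeR adjusted p = 0.0414), and at 0.51 ± 0.14 with VC against day 0 plus VC (edgeR adjusted p = 0.00394). In D/KO day 4 plus VC against day 0 plus VC their log2 differences were 0.20 for Kmt2b and 1.78 for Upk1a, against 6.17 for Zbtb32.

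Markers of other cells were read in the same libraries, since Zbtb32 is best known from lymphocytes. Of 16 lymphocyte markers, 11 had no count in the 3 D/KO day 4 plus VC libraries, where the list summed to 0.529 to 1.0 CPM, and Cd3d, Cd3e, Cd3g, Cd8b1, Ms4a1, Ncr1 and Trbc1 were at 0 in all 36 libraries. The 9 germ cell markers summed to 0.334 to 0.423 CPM there. Epithelial markers moved with Zbtb32: the 15 genes summed to 28.4 to 44.7 CPM in D/KO day 0 plus VC, 168 to 203 CPM in D/KO day 2 plus VC and 663 to 771 CPM in D/KO day 4 plus VC, with 0 of 15 at 0, but to 71.2 to 94.3 CPM in WT day 4 plus VC. In WT day 0 they summed to 136 to 142 CPM, with 9 of 15 at 0, and Zbtb32 had 3 to 11 counts. Myeloid and endothelial markers summed to 248 to 286 CPM in D/KO day 0 plus VC, 144 to 180 CPM in D/KO day 2 plus VC and 474 to 673 CPM in D/KO day 4 plus VC, so they were also higher at day 4 in that series. In D/KO day 0 they summed to 649 to 706 CPM, and Zbtb32 was 0.118 to 0.58 CPM. The same list was lower in WT cells, at 42.5 to 45.6 CPM in WT day 4 plus VC and 76.6 to 146 CPM in WT day 0. The 12 fibroblast markers summed to 35181 to 36166 CPM in D/KO day 4 plus VC and to 190321 to 259757 CPM in D/KO day 0 plus VC. The part of any of these lists in the Zbtb32 level was not tested.

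**Figure D3:**
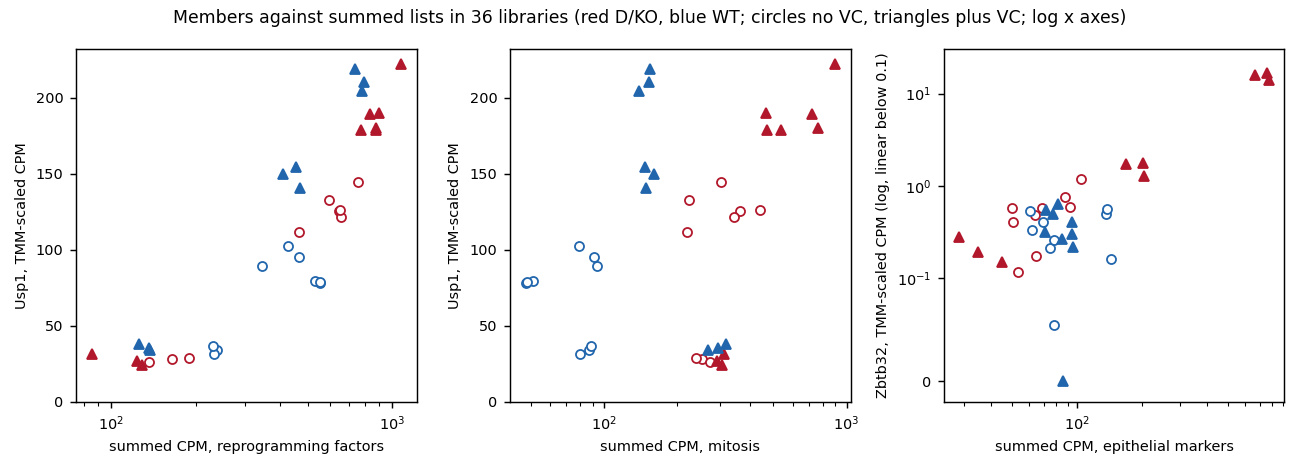
Usp1 against the summed reprogramming factors, Usp1 against the summed mitosis genes, and Zbtb32 against the summed epithelial markers, each point 1 of 36 libraries in TMM-scaled CPM (red D/KO, blue WT, open circles no VC, triangles plus VC), with log x axes and a log y axis (linear below 0.1) for Zbtb32. Usp1 is 24.3 to 38.2 CPM where the factors are below 240 CPM, and Zbtb32 is 14.1 to 16.8 CPM in the 3 libraries with 663 to 771 CPM of epithelial markers.

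At day 0 a difference between the lines was called for Usp1 alone of the 3 genes. Usp1 was lower in D/KO than in WT cells by -0.30 ± 0.10 (edgeR adjusted p = 0.0159), where 43.2% of genes were called, and Parp1 (-0.07 ± 0.10, edgeR adjusted p = 0.621) and Zbtb32 (-0.51 ± 0.56, edgeR adjusted p = 0.488) were not called. The Usp1 call was lost without D/KO day 0 replicate 3 (-0.25, edgeR adjusted p = 0.0778) or WT day 0 replicate 3 (-0.23, edgeR adjusted p = 0.0966). The inhibitor table has other mice, of 4 weeks for control D/KO and 14 weeks for WT tail tip. Genotype and age cannot be told apart there either. In that table Usp1 had the opposite sign: control D/KO was 0.31 ± 0.10 above WT tail tip (edgeR adjusted p = 0.0164), with 34.6% of genes called. This too was lost without WT tail tip replicate 1 (0.31, edgeR adjusted p = 0.0521), WT tail tip replicate 3 (0.30, edgeR adjusted p = 0.0553) or control D/KO replicate 2 (0.29, edgeR adjusted p = 0.0657).

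The change from day 0 was compared between the lines directly, as the D/KO change minus the WT change without VC. For Usp1 it was 0.68 ± 0.14 on day 2 (edgeR adjusted p = 0.00131) and 1.02 ± 0.14 on day 4 (edgeR adjusted p = 1.41e-06), that is, the fold rise was 1.6 and 2.02 times as large in D/KO cells. For Parp1 it was 0.56 ± 0.14 on day 2 (edgeR adjusted p = 0.0104) and 0.42 ± 0.14 on day 4 (edgeR adjusted p = 0.0405). Of all genes tested, 6.54% were called at day 2 and 14.3% at day 4. The genes were chosen for a rise with VC in the same D/KO line, whatever WT cells did. That choice favours a larger D/KO change in this comparison.

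The Parp1 difference at day 4 was not stable: it was lost in 9 of 12 fits that left out 1 library, namely those without any one of D/KO day 0 replicates 2 and 3, D/KO day 4 replicates 2 and 3, WT day 0 replicates 2 and 3, and each WT day 4 replicate, with values of 0.36 to 0.44 in those fits and adjusted p up to 0.131. For Zbtb32 the differences were 1.94 ± 0.81 at day 2 and 1.505 ± 0.73 at day 4 and not called (edgeR adjusted p = 0.166 and 0.174). They were called without D/KO day 0 replicate 1, the day 0 library with 9 counts, at 2.86 (edgeR adjusted p = 0.047) and 2.43 (edgeR adjusted p = 0.0383). With VC the same differences are descriptions: at day 4 they were 0.28 for Usp1, 1.18 for Parp1 and 5.60 for Zbtb32, and at day 2 they were 0.68, 0.94 and 3.89. With VC the difference was smallest for Usp1 and largest for Zbtb32.

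**Figure D4:**
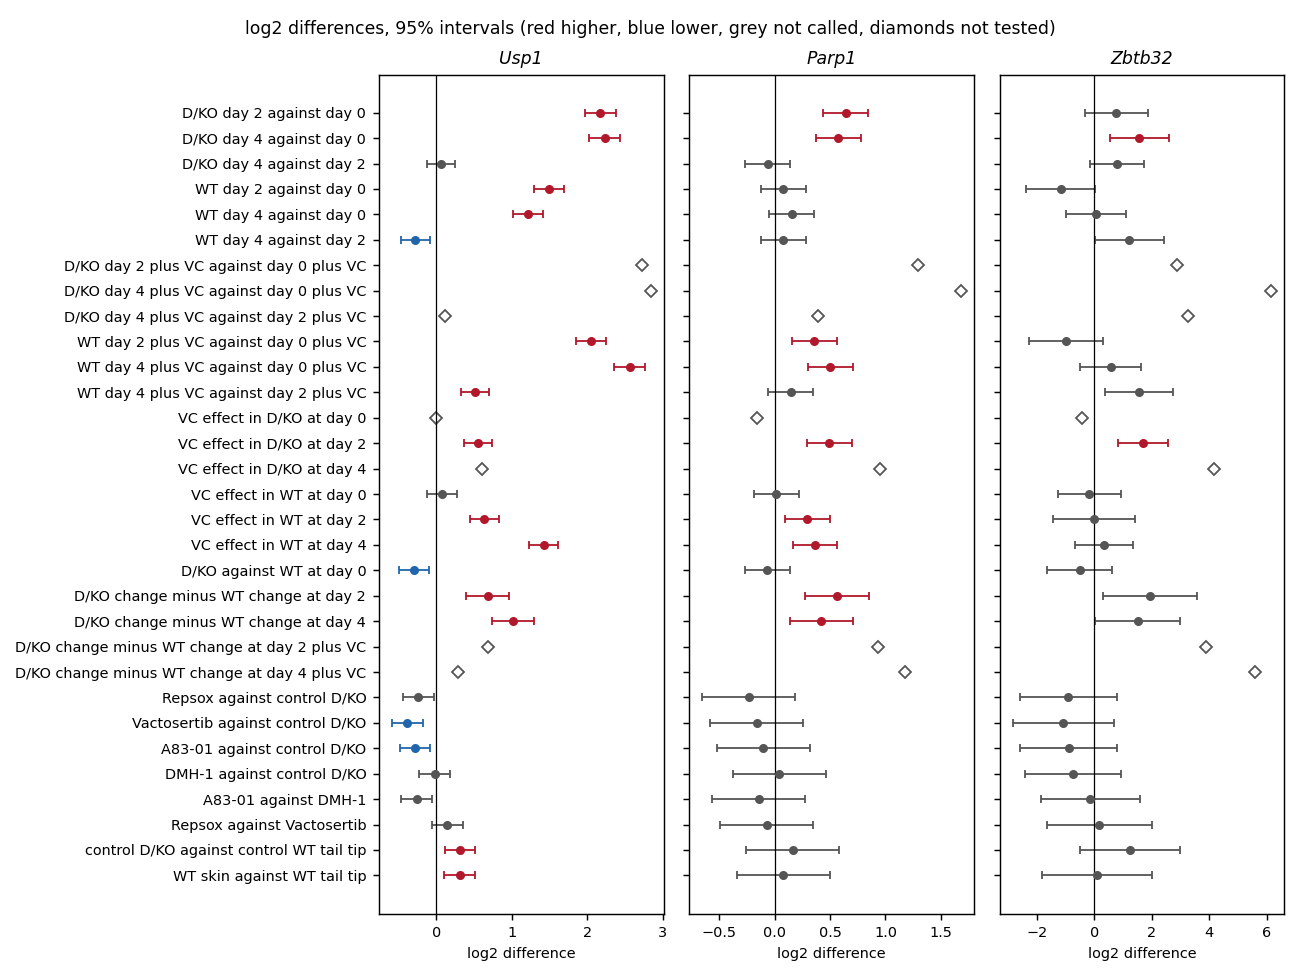
The log2 differences of Usp1, Parp1 and Zbtb32 in 31 contrasts with 95% intervals, red where higher, blue where lower and grey where not called, with open diamonds for contrasts that are descriptions only. The x axes differ in range. Usp1 is called in nearly every contrast of time, Parp1 mainly in D/KO cells and with VC, and Zbtb32 in 2.

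The D/KO cells of the inhibitor table were not induced, and among them differences were called for Usp1 alone of the 3 genes. A83-01 and Repsox block the TGFb type I receptor ALK5, DMH-1 blocks the BMP type I receptor ALK2, and the study describes Vactosertib as an inhibitor of both. A83-01 and DMH-1 were used at one dose and Repsox and Vactosertib at another, so these pairs are compared with each other. Usp1 was 29.5, 31.1 and 29.1 CPM in control D/KO, 25.7, 24.5 and 25.6 CPM with Repsox, 24.4, 22.3 and 21.9 CPM with Vactosertib, 24.5, 24.9 and 24.2 CPM with A83-01, and 30.5, 27.3 and 30.5 CPM with DMH-1. All libraries with Repsox, Vactosertib or A83-01 lay below all control D/KO libraries, while DMH-1 overlapped them.

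Usp1 was lower with Vactosertib, at -0.39 ± 0.10 (76.5% of control, edgeR adjusted p = 0.00807), where 18.1% of genes were called. Without a filter on low counts it was -0.37 and not called (edgeR adjusted p = 0.154). With A83-01 the value was -0.28 ± 0.10 (edgeR adjusted p = 0.0343), with 27.5% of genes called. That call was lost when any one of the 3 control D/KO or 3 A83-01 libraries was left out (-0.30 to -0.26, adjusted p of 0.0616 to 0.116). With Repsox the value was -0.24 ± 0.10 and not called (edgeR adjusted p = 0.0898), with 20.7% of genes called. With DMH-1 it was -0.02 ± 0.10 (95% interval -0.23 to 0.18, edgeR adjusted p = 0.95), with 7.25% of genes called.

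Between matched doses, A83-01 against DMH-1 gave -0.26 ± 0.10 for Usp1 (95% interval -0.46 to -0.06, edgeR adjusted p = 0.0642), where 20.5% of genes were called. Without both libraries that stood apart, which are in neither group, it was -0.26 and called (edgeR adjusted p = 0.0354). Repsox against Vactosertib gave 0.14 ± 0.10 (95% interval -0.06 to 0.35, edgeR adjusted p = 1). In that comparison 0% of genes were called by edgeR, with 347 genes at an unadjusted p under 0.05 and 6 called by DESeq2. The intervals of these 2 pairs reach a ratio of 0.725 for the first and 1.27 for the second. Mitosis genes were lower in all 4 treated groups, against the shares of all genes given above, with 13 of 20 lower with Repsox, 18 with Vactosertib, 19 with A83-01 and 9 with DMH-1. Of 39 S phase genes 3, 4, 16 and 4 were lower in the same order, and their part in the Usp1 level was not tested.

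Parp1 was 40.0, 47.4 and 47.3 CPM in control D/KO, 44.0, 30.3 and 40.1 CPM with Repsox, 40.5, 42.1 and 37.6 CPM with Vactosertib, 37.7, 44.6 and 43.1 CPM with A83-01 and 46.6, 46.1 and 45.8 CPM with DMH-1. The groups overlapped and none of the 4 differences was called, at -0.23, -0.16, -0.10 and 0.04 (edgeR adjusted p = 0.483, 0.669, 0.775 and 0.959). The 95% interval for Repsox, -0.65 to 0.19, includes falls larger than that of Usp1, and the lowest of these libraries, at 30.3 CPM, is Repsox replicate 2, which stood apart. Zbtb32 had 1 to 13 counts in each control and treated D/KO library and no difference was called, at -0.91 with Repsox, -1.08 with Vactosertib, -0.89 with A83-01 and -0.74 with DMH-1 (edgeR adjusted p of 0.456 to 0.718). Its intervals span over 3 log2 units, so changes of this size were not detectable with these libraries.

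Skin and tail tip fibroblasts of WT mice differed in Usp1 and, depending on 1 library, in Parp1. Usp1 was 29.2, 26.2 and 33.9 CPM in skin and 23.9, 24.6 and 23.7 CPM in tail tip, a difference of 0.31 ± 0.10 (edgeR adjusted p = 0.0189), where 34.2% of genes were called. It was lost without WT tail tip replicate 1 (0.30, edgeR adjusted p = 0.0592), WT tail tip replicate 3 (0.29, edgeR adjusted p = 0.0605) or WT skin replicate 3 (0.20, edgeR adjusted p = 0.142). Parp1 was 23.2, 52.5 and 51.2 CPM in skin and 40.3, 43.4 and 36.4 CPM in tail tip, and the low value is that of WT skin replicate 1. The difference was 0.08 ± 0.20 with that library (edgeR adjusted p = 0.806) and 0.37 without it (edgeR adjusted p = 0.027). Mitosis genes summed to 637 to 659 CPM in skin and 116 to 122 CPM in tail tip, and their part was not tested. In the WT 4F cells labelled TGFB, Usp1 was 17.5, 15.6 and 18.1 CPM and Parp1 26.9, 25.4 and 29.5 CPM, below the other groups of the table except for WT skin replicate 1 in Parp1, and Zbtb32 had 21, 1 and 10 counts.

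**Figure D5:**
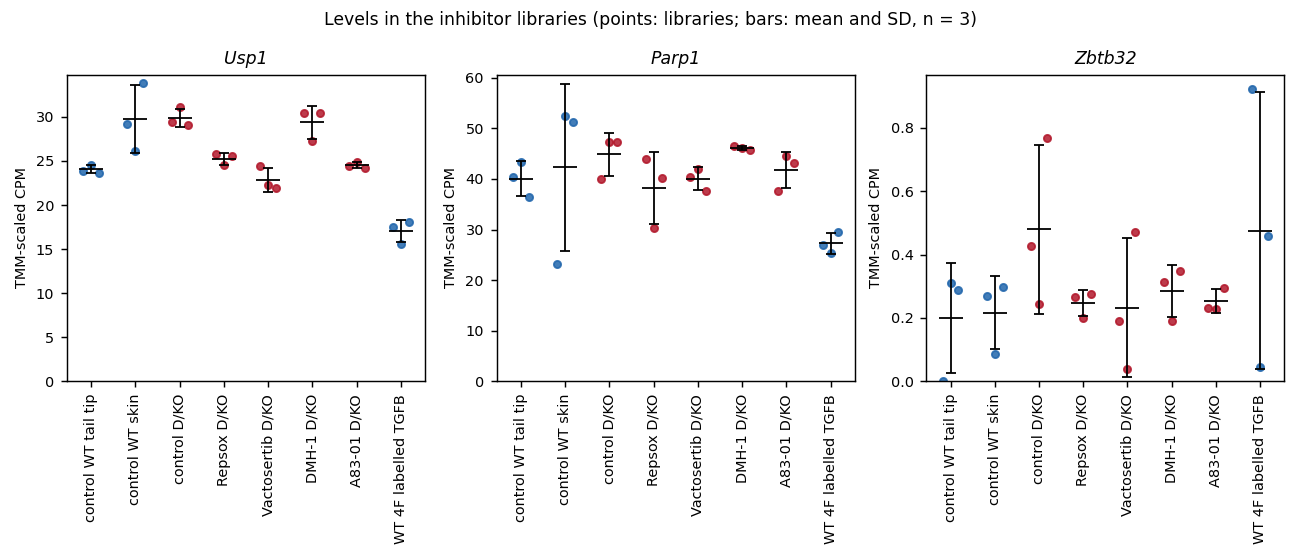
Levels of Usp1, Parp1 and Zbtb32 in the 24 inhibitor libraries in TMM-scaled CPM on linear axes that start at 0. Points are libraries, red for D/KO and blue for WT, and bars are mean and SD of 3. Usp1 is 29.1 to 31.1 CPM in control D/KO and 21.9 to 25.7 CPM with Repsox, Vactosertib or A83-01, and the low WT skin library in the Parp1 panel is at 23.2 CPM.

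The pattern of each gene over the 36 reprogramming libraries was compared with all other genes by Pearson correlation of log2 CPM, as a description without a test, since libraries share group, induction and depth. For Usp1 the most alike were Lbp (r = 0.970), Zfp423 (r = 0.957), Pdzd2 and Msln (both r = 0.955) and Klrg2 (r = 0.953), followed by Pou5f1 and Sox2 (both r = 0.952). The counts of Pou5f1 and Sox2 may mix transcripts of the transgenes and of the endogenous genes. For Parp1 they were Camk1d (r = 0.934), L1td1 (r = 0.933), Arhgef18 (r = 0.928), Ddc (r = 0.926) and Mybbp1a (r = 0.924). For Zbtb32 they were Tbc1d24 (r = 0.928), Alox12b (r = 0.925), Ceacam20 (r = 0.920), Lrrc26 (r = 0.915) and Tmem125 (r = 0.914). The last 4 were not tested in the inhibitor table. By Spearman's rho these 5 genes had 0.534 to 0.779 with Zbtb32 and the last 4 ranked between 474 and 1280, so their place by Pearson's r does not hold by rank.

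Most of these likenesses did not carry over to the 24 inhibitor libraries. There r with Usp1 was 0.617 for Lbp, 0.681 for Msln, -0.734 for Klrg2, -0.784 for Pou5f1 and -0.168 for Sox2. It was 0.104 for Camk1d with Parp1 and -0.01 for Tbc1d24 with Zbtb32. Among the 3 genes themselves, r over the reprogramming libraries was 0.801 for Usp1 and Parp1, 0.828 for Parp1 and Zbtb32 and 0.484 for Usp1 and Zbtb32. Over the inhibitor libraries the same pairs had 0.633, -0.06 and 0.125. The reprogramming libraries include those whose values chose the 3 genes, so the choice favours positive values of r there.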

How the data were processed

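PolyA RNA of 60 fibroblast libraries was read from 2 tables of counts per gene. The authors made these deposited counts with FastQC, Trim Galore, HISAT2 on GRCm39 and featureCounts, from paired-end reads. Versions, annotation release, strand setting and handling of multi-mapping reads are not given in the sources used here. The deposited tables also list each gene's exon length, which was used for levels per kilobase.

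GENCODE M39, the source of symbols and overlaps, lists 56236 of the 56980 identifiers in the tables. In R 4.3.3 with edgeR 4.0.16, counts were scaled by TMM and genes kept by filterByExpr (minimum count 10, minimum total 15), which left 15832 and 15652 genes. One quasi-likelihood fit per table had a coefficient per group, and two-sided p-values were adjusted by Benjamini-Hochberg over all genes of a contrast. The scripts were tested on simulated data. Depth gave 3 counts a level of 0.153 to 0.226 CPM in the reprogramming table and 0.094 to 0.178 CPM in the inhibitor table, and intervals for single counts cover counting error only. Between replicates, the median variance was 12.8 times that of counting among 36 reprogramming pairs and 24.1 times among 24 inhibitor pairs. This holds over all genes, while Zbtb32, with few counts in most groups, also carries counting error.

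The genes were chosen, and all lists compiled, with earlier results of these data known. The repair set is the mouse Reactome DNA repair set, and of its 138 identifiers 134 were tested. At most 4 genes per list are named, those ranking first by p in D/KO cells at day 4 without VC, unless the text says otherwise. The genes named for likeness are the 5 with the highest Pearson r for each gene (log2 CPM with a prior count of 2). Pou5f1 and Sox2, at ranks 6 and 7 for Usp1, are named in addition. Alternatives were DESeq2 1.42.0, its size factors in edgeR, no filter, at least 10 counts in every library, only the libraries compared, no skin or TGFB-labelled libraries, Spearman's rho, day 0 without VC as baseline, each library left out, and, chosen after seeing the data, both inhibitor-table libraries that stand apart left out.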

Additional observations from a re-analysis of the deposited data

Results flagged for a closer look

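The change from day 0 without VC differed between D/KO and WT cells for 2 of the genes by the test of that difference itself. For Usp1 the D/KO change exceeded the WT change by 0.68 on the log2 scale at day 2 and by 1.02 at day 4. For Parp1 it exceeded it by 0.56 at day 2 and by 0.42 at day 4, and the last of these was lost in 9 of 12 fits that left out 1 library. Genotype, sex, age and cell line cannot be told apart in this contrast. The choice of genes by their rise in D/KO cells with VC, without regard to WT cells, also favours a larger D/KO change.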

How the results depend on the processing

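No paired analysis was possible because the labels number the libraries through each table and replicates within a group were numbered in accession order. Apart from leaving out libraries, direction and call were kept in 158 of 172 alternative results for Usp1, 167 of 172 for Parp1 and 118 of 120 for Zbtb32, which has no value when 10 counts are asked of every library. In every case below the cause was not tested. Without a filter on low counts these were no longer called: Usp1 in WT day 4 against day 2 (-0.28), D/KO against WT at day 0 (-0.30), Vactosertib (-0.37), A83-01 (-0.26), control D/KO against tail tip (0.31) and skin against tail tip (0.29), and Parp1 in the VC effect in WT at day 2 (0.30) and the D/KO minus WT change at day 4 (0.43). With DESeq2 size factors the first of them was lost (-0.25). With only the compared libraries it was lost again (-0.26), as were Usp1 in skin (0.32), both Parp1 results (0.28 and 0.42) and Zbtb32 at D/KO day 4 (1.58). DESeq2 gained Zbtb32 in WT day 4 against day 2 with VC (1.62) and Usp1 for Repsox (-0.24) and A83-01 against DMH-1 (-0.25). Both of these Usp1 results were also gained without the skin and TGFB-labelled libraries (-0.24 and -0.27). Without the pair of libraries that stand apart, chosen after seeing the data, Usp1 in A83-01 against DMH-1 (-0.26) and Parp1 in skin (0.37) were gained.

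Leaving out 1 library at a time gave these ranges where a call changed. For Usp1 they were -0.32 to -0.23 in WT day 4 against day 2, -0.34 to -0.23 in D/KO against WT at day 0, -0.30 to -0.26 for A83-01, 0.29 to 0.33 for control D/KO against tail tip and 0.20 to 0.39 for skin. For Parp1 they were 0.36 to 0.53 in the D/KO minus WT change at day 4, 0.23 to 0.37 for VC in WT at day 2, 0.29 to 0.40 for WT day 2 with VC and -0.11 to 0.37 for skin. For Zbtb32 they were 1.19 to 2.48 at D/KO day 4, 1.53 to 2.86 and 1.13 to 2.43 in the D/KO minus WT changes at days 2 and 4, 1.02 to 2.15 in WT day 4 against day 2 with VC, and -0.81 to 0.49 for VC in D/KO cells at day 0, where the sign turned without D/KO day 0 replicate 1.

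Counts of called genes among all genes tested that were over 1.5 times apart were, with only the compared libraries, 6400 against 3880 for WT day 4, 2523 against 4140 for VC in D/KO cells at day 0, 4317 against 2828 for Vactosertib, 1910 against 1135 for DMH-1 and 2591 against 5348 for skin. By DESeq2, Repsox against Vactosertib gave 6 against 0. Without the libraries that stand apart, Vactosertib gave 4584, DMH-1 2440 and A83-01 against DMH-1 5004 against 3204. With 1 library left out, the lowest counts were 1103 against 3406 for WT day 4 against day 2 (without WT day 2 replicate 2), 1067 against 1672 for WT day 2 (the same library), 970 against 1515 for D/KO day 4 against day 2 (without D/KO day 4 replicate 1), 1731 against 3176 for WT day 4 against day 2 with VC (without WT day 2 plus VC replicate 1) and 619 for DMH-1 (without control D/KO replicate 2). By Spearman's rho, 0 of the 5 genes most like each of the 3 stayed among the top 5.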
